A study of Mus musculus with 8 samples.

Results

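The interferon regulatory factor (Irf) genes encode a family of transcription factors. The 8 members described here, Irf1, Irf2, Irf3, Irf4, Irf5, Irf7, Irf8 and Irf9, were chosen by name and matched to their Ensembl identifiers, and they are 8 of 54532 genes counted in each library. Polyadenylated RNA was sequenced from bone marrow-derived macrophages (BMDMs), cells grown from mouse marrow for 7 days in medium conditioned by L929 cells, from mice aged 6 to 8 weeks. There were 4 groups of 2 libraries, each incubated for 12 h: wild-type (WT) and Trex1-/- BMDMs, for both of which DMSO is the vehicle that the labels name, Trex1-/- BMDMs with the STING antagonist H151 at 500 nM, and Trex1-/- BMDMs with a second STING antagonist, SN-011. No dose of SN-011 is in the labels, and no antagonist was given to WT cells. Trex1 encodes an exonuclease that removes DNA from the cytosol, and it was knocked out in the whole animal rather than in macrophages alone. The study describes the libraries of a group as independent experiments, but neither it nor the labels say whether they came from separate mice, so p-values measure the spread between these libraries.

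All IRF proteins share an amino-terminal domain that binds repeats of the sequence GAAA, and they differ in what switches them on. When DNA gathers in the cytosol, cGAS makes cGAMP, which activates STING, and the kinase TBK1 then phosphorylates IRF3, which enters the nucleus and drives the interferon beta gene. Secreted interferon acts back on cells through the ISGF3 complex, which holds STAT2 and IRF9 and induces Irf7 and a wide set of antiviral genes. IRF1 and IRF2 bind similar sites and often oppose each other, IRF5 drives inflammatory cytokines, and IRF8 and IRF4 act with PU.1 in the development and activation of myeloid cells. The counts report messenger RNA, not phosphorylation or entry into the nucleus.

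The members lie on 6 chromosomes of mouse build GRCm38 (mm10). Irf1 (ENSMUSG00000018899) is at chr11:53770014-53778374 on the plus strand, Irf2 (ENSMUSG00000031627) at chr8:46739732-46847458 on the plus strand, and Irf3 (ENSMUSG00000003184) at chr7:44997648-45002848 on the plus strand. Irf4 (ENSMUSG00000021356) is at chr13:30749226-30766976, Irf5 (ENSMUSG00000029771) at chr6:29526625-29541871 and Irf8 (ENSMUSG00000041515) at chr8:120736358-120756694, all on the plus strand. Irf9 (ENSMUSG00000002325) is at chr14:55603571-55610030 on the plus strand, and Irf7 (ENSMUSG00000025498) at chr7:141262706-141266481 is the only member on the minus strand. All 8 are protein-coding genes.

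Promoter sequence was examined for 3 motifs, because several members rose and fell together in the comparisons given further on. RefSeq start sites of build GRCm38.p6 gave 11 windows of 300 bases (250 before the start and 50 after) that cover all 8 members. The motifs were the interferon-stimulated response element (ISRE), GAAA followed by any 2 bases and another GAAA on either strand, which ISGF3 and IRF proteins bind; the gamma-activated site (GAS), TTCNNNGAA, which reads the same on both strands and which dimers of STAT proteins bind; and the kappaB motif of NF-kappaB. An ISRE was found in 1 of the 8 members, Irf2, and 3.99% of the 27025 genes in the promoter set (3.44% of its 32851 windows) hold one. A GAS was found in 3 members, Irf1, Irf2 and Irf8, where 9.55% of genes (8.3% of windows) hold one, and a kappaB motif in 2 members, Irf1 and Irf2, where 9.55% of genes (8.46% of windows) do. The stretches that hold the ISRE and GAS matches are shown because they are the interferon-response motifs in these windows; capitals mark the motif, and each stretch reads 5′ to 3′ on the plus strand, which is the strand of the gene.
Irf1 GAS, chr11:53769909-53769947: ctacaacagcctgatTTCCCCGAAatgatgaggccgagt
Irf2 ISRE, chr8:46739495-46739528: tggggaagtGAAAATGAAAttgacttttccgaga
Irf2 GAS, chr8:46739506-46739544: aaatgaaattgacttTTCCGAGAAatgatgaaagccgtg
Irf8 first GAS, chr8:120736172-120736210: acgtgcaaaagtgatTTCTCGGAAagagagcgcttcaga
Irf8 second GAS, chr8:120736190-120736228: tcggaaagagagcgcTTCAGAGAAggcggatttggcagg
In Irf2 the ISRE starts 241 bases before the start site and the GAS 224 bases before it, so the stretches overlap but the motifs do not. The GAS of Irf1 starts 90 bases before its start site, and those of Irf8 start 171 and 153 bases before. No window of Irf3, Irf4, Irf5, Irf7 or Irf9 held any of the 3 motifs as spelled, which says only that these letters are not in these windows. The windows of Irf9 do not cover the outermost GENCODE start, which lies upstream of them. A match is a string of letters and was not measured as a bound site.

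Total counts ran from 11845470 to 17284863 per library, and 14591 genes had enough counts to be tested. All 8 members passed that filter, with counts per library between 113 (Irf4) and 6910 (Irf8). Levels are given in CPM, which are counts scaled to a common library total with edgeR's TMM factors, and a gene is said to be called where edgeR's quasi-likelihood test gave a Benjamini-Hochberg adjusted p under 0.05 over all 14591 genes. Trex1 had 0 counts in all 8 libraries, WT included. Its exons lie within those of another gene and reads shared by genes were not counted, so the genotype rests on the labels. Summed macrophage markers lay between 30440 and 32640 CPM in every library, so the labelled cell type had its markers.

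In Trex1-/- BMDMs 5 of the 8 members were called higher than in WT and none was called lower, where 9.27% of all tested genes were called higher and 7.11% lower, or 16.4% in either direction. Irf7 rose most, to 6.14 times its WT level, and Irf1, Irf9, Irf5 and Irf2 rose to between 1.37 and 1.56 times theirs. Irf3, Irf4 and Irf8 did not pass the test. H151 lowered Irf7, Irf1 and Irf9 relative to Trex1-/- cells with vehicle, and SN-011 lowered Irf7, Irf1 and, by a narrow margin, Irf2. Irf1 fell to levels that overlapped those of WT, whereas Irf7 remained more than 3.2-fold above WT with either antagonist. In bulk samples fewer cells of a type and less RNA per cell cannot be told apart.

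**Figure D1:**
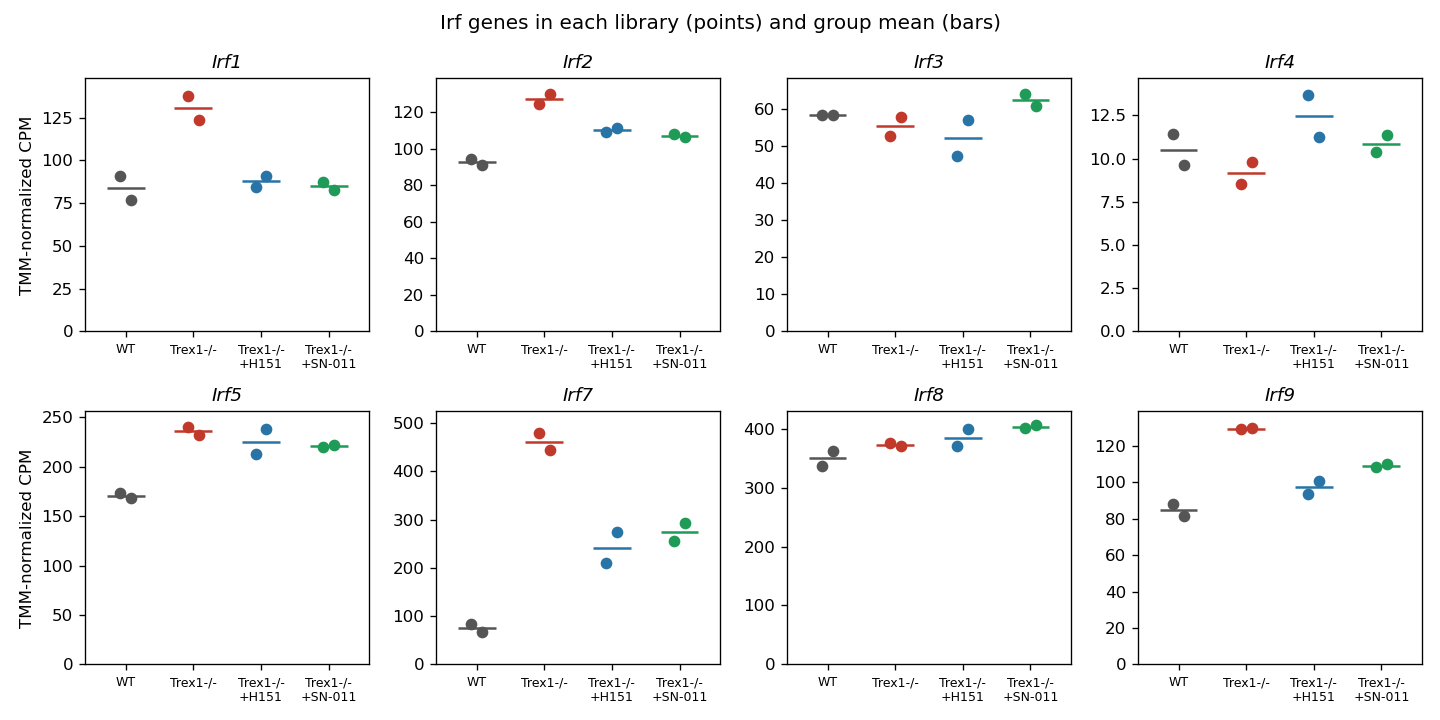
Normalized level of each Irf gene (TMM-normalized CPM, linear axes that start at 0 and differ between panels) in the 8 libraries, as points, with the group mean as a bar. Irf7 lies between 66.9 and 83.6 CPM in WT and between 445 and 479 CPM in Trex1-/- libraries with vehicle, with both antagonist groups in between, while Irf8 runs only from 338 to 406 CPM over all 8 libraries.

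Irf7, the factor that amplifies interferon gene transcription once interferon has induced it, had 83.6 and 66.9 CPM in WT, 479 and 445 CPM in Trex1-/-, 211 and 274 CPM with H151, and 256 and 293 CPM with SN-011. The WT libraries were lowest, the Trex1-/- libraries highest, and the 2 antagonist groups lay between them and overlapped each other. The log2 fold change of Trex1-/- against WT was 2.62 (SE 0.12, edgeR adjusted p = 7.16e-09), and 88 of the 14591 tested genes had a larger one. Against Trex1-/-, Irf7 fell by 0.93 on the log2 scale with H151 (SE 0.12, adjusted p = 0.000324) and by 0.75 with SN-011 (SE 0.12, adjusted p = 0.002). These leave log2 fold changes over WT of 1.69 (adjusted p = 1.23e-06) and 1.87 (adjusted p = 5.01e-07), or 3.23 and 3.65 times the WT level. The call with SN-011 was lost without SN-011 replicate 1, when the difference was -0.66 with an adjusted p of 0.0793.

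Irf9, the DNA-binding subunit of ISGF3, had 87.8 and 81.2 CPM in WT, 129 and 129.8 CPM in Trex1-/-, 93.4 and 100.8 CPM with H151, and 108 and 110.0 CPM with SN-011. None of the 4 groups overlapped another, and their order was WT, H151, SN-011 and Trex1-/- with vehicle. Irf9 was higher in Trex1-/- than in WT by 0.61 on the log2 scale (SE 0.07, edgeR adjusted p = 1.78e-05). It fell by 0.41 with H151 (SE 0.07, adjusted p = 0.00266). With SN-011 its difference from vehicle was -0.25 (SE 0.07, adjusted p = 0.0788), which missed the threshold, although 3 of 11 alternative analyses called it, with 0.039 the smallest adjusted p. Against WT it was higher with SN-011 (0.37, adjusted p = 0.00208), and with H151 the difference of 0.20 had an adjusted p of 0.0706.

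Irf3, the factor that TBK1 phosphorylates downstream of STING, had 58.4 and 58.3 CPM in WT, 52.8 and 58.0 CPM in Trex1-/-, 47.2 and 57.1 CPM with H151, and 64.2 and 60.7 CPM with SN-011. The SN-011 libraries were the highest, the H151 libraries overlapped those of Trex1-/-, and WT lay just above both of these groups. The log2 difference of Trex1-/- from WT was -0.07 (95% interval -0.27 to 0.12, edgeR adjusted p = 0.666). Neither antagonist gave a called difference from vehicle, at -0.08 (-0.28 to 0.12) for H151 and 0.17 (-0.02 to 0.37) for SN-011.

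Irf1, an activator that interferon gamma and other cytokines induce, had 90.8 and 76.7 CPM in WT, 138 and 123 CPM in Trex1-/-, 84.7 and 91.1 CPM with H151, and 87.5 and 82.5 CPM with SN-011. The Trex1-/- libraries stood above all 6 others, and the 3 remaining groups overlapped. Irf1 rose by 0.64 on the log2 scale in Trex1-/- against WT (SE 0.09, edgeR adjusted p = 0.000122). It fell by 0.57 with H151 (SE 0.09, adjusted p = 0.00167) and by 0.62 with SN-011 (SE 0.09, adjusted p = 0.000902). What remained over WT was 0.07 with H151 (95% interval -0.12 to 0.26) and 0.03 with SN-011 (-0.16 to 0.21), neither of them called.

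Irf2, which can compete with IRF1 for its sites, had 94.1 and 91.3 CPM in WT, 125 and 130.0 CPM in Trex1-/-, 109 and 111 CPM with H151, and 108 and 106 CPM with SN-011. WT was lowest and Trex1-/- highest, with the antagonist groups in between, and none of the 4 groups overlapped. Irf2 rose by 0.46 in Trex1-/- against WT (log2, SE 0.06, edgeR adjusted p = 0.000109). The differences from vehicle were close in size, -0.21 with H151 (adjusted p = 0.13) and -0.25 with SN-011 (adjusted p = 0.0475), on either side of the threshold. The SN-011 call was lost whichever of the 4 libraries compared was left out, with adjusted p between 0.129 and 0.315, and under DESeq2 (0.112).

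Irf5, which acts below Toll-like receptors on inflammatory cytokine genes, had 173 and 168 CPM in WT, 240.3 and 232 CPM in Trex1-/-, 213 and 239 CPM with H151, and 220.2 and 222 CPM with SN-011. Both WT libraries were below all 6 Trex1-/- libraries, and the H151 range overlapped those of vehicle and of SN-011. Irf5 rose by 0.47 in Trex1-/- against WT (log2, SE 0.06, edgeR adjusted p = 0.000167). Neither antagonist gave a call for Irf5 against vehicle, where the difference was -0.07 with H151 (95% interval -0.20 to 0.07) and -0.09 with SN-011 (-0.23 to 0.04). It stayed above WT in both, by 0.40 (adjusted p = 0.000876) and 0.37 (adjusted p = 0.00154).

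Irf8, which directs myeloid development with PU.1, had 338 and 362 CPM in WT, 376 and 371 CPM in Trex1-/-, 370.1 and 400.1 CPM with H151, and 402 and 406 CPM with SN-011. The range across all 8 libraries was narrow, with WT lowest and SN-011 highest. Trex1-/- differed from WT by 0.09 (log2, 95% interval -0.04 to 0.22, edgeR adjusted p = 0.355). With SN-011 Irf8 was higher than in WT by 0.21 (adjusted p = 0.037), a call that was lost on leaving out any of the 4 libraries compared, with adjusted p between 0.0577 and 0.341.

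Irf4, a factor of lymphocytes and of alternatively activated macrophages, had 11.4 and 9.62 CPM in WT, 8.53 and 9.83 CPM in Trex1-/-, 13.7 and 11.3 CPM with H151, and 10.4 and 11.4 CPM with SN-011. The H151 libraries were both above those of Trex1-/- with vehicle, and the WT range overlapped those of all 3 other groups. At 113 to 178 counts per library its intervals were the widest of the family. H151 against vehicle gave 0.44 (log2, 95% interval 0.09 to 0.78, edgeR adjusted p = 0.328), and Trex1-/- against WT gave -0.19 (-0.54 to 0.16, adjusted p = 0.508), neither of them called.

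**Figure D2:**
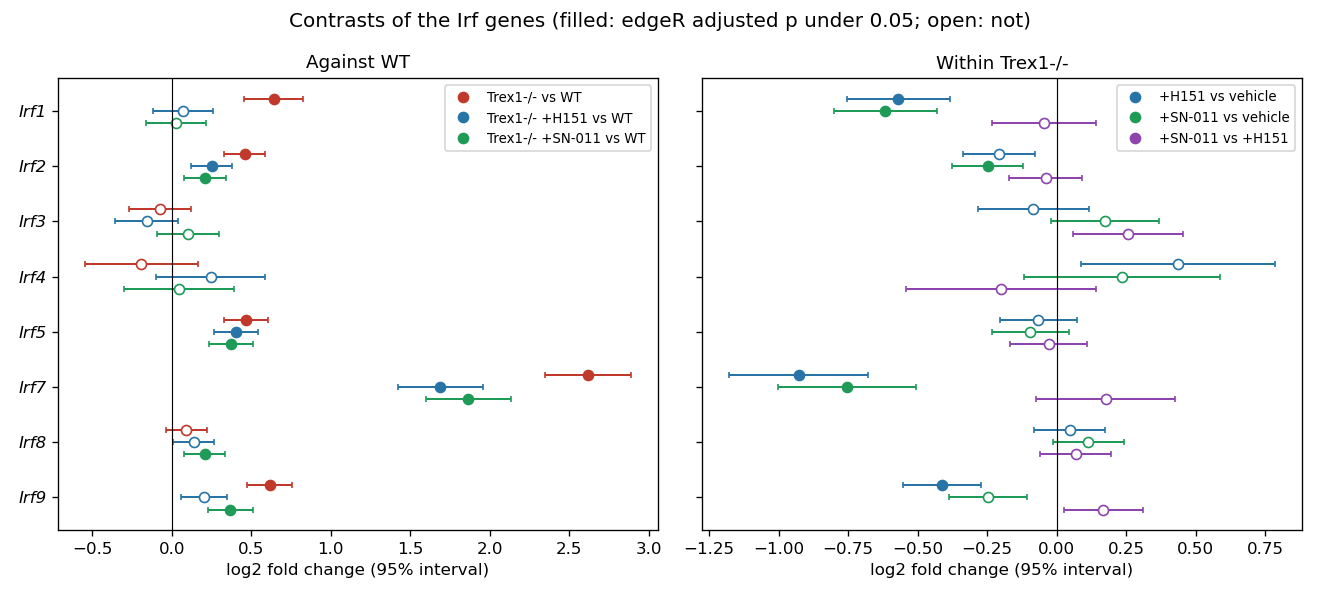
Log2 fold change of each Irf gene (points) with its 95% interval (bars), for the 3 Trex1-/- groups against WT on the left and for the comparisons within Trex1-/- on the right, where filled points have an edgeR adjusted p under 0.05. Irf7 is called in all 3 comparisons with WT (2.62, 1.69 and 1.87), and no point of SN-011 against H151 is filled.

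Counted by comparison, H151 lowered 3 of 8 members against Trex1-/- with vehicle (Irf1, Irf7 and Irf9) and raised none, where 1.84% of tested genes were called lower and 0.384% higher, or 2.23% in either direction. SN-011 lowered 3 of 8 (Irf1, Irf2 and Irf7) and raised none, where 2.22% were called lower and 0.110% higher, or 2.33% in either direction. Both comparisons use the same Trex1-/- libraries. The sample records of the SN-011 libraries are numbered apart from the unbroken run of the other groups. A batch that held them alone cannot be told apart from SN-011, whether SN-011 is compared with vehicle, H151 or WT.

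The 2 antagonists were also compared directly, at 12 h each. The labels give a dose for H151 alone, and the methods of the study give the same figure for both antagonists. For SN-011 against H151, edgeR called 0 of 8 members, and 0.158% of tested genes were called in either direction. DESeq2 also called none, and 2 members had an unadjusted edgeR p under 0.05, Irf3 and Irf9. Irf3 was 0.26 higher with SN-011 (log2, 95% interval 0.06 to 0.45, adjusted p = 0.472) and Irf9 was 0.17 higher (0.02 to 0.31, adjusted p = 0.515). The interval of Irf7 ran from -0.07 to 0.43 around 0.18, and that of Irf1 from -0.23 to 0.14 around -0.05. The result for Irf3 depended on the H151 library kept, since Irf3 had 47.2 CPM in H151 replicate 1 and 57.1 CPM in replicate 2. Without replicate 2, which leaves the lower H151 library alone, the difference was 0.40.

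Against WT, 3 of 8 members were called higher with H151 (Irf2, Irf5 and Irf7) and none lower, where the shares among all tested genes were 6.79% higher and 5.04% lower. With SN-011 5 of 8 were called higher (Irf2, Irf5, Irf7, Irf8 and Irf9) and none lower, where the shares were 6.18% higher and 5.57% lower. The difference between these 2 lists is not itself a called difference, since SN-011 against H151 gave no called member. Irf2 was higher than WT by 0.25 with H151 (adjusted p = 0.0151) and by 0.21 with SN-011 (adjusted p = 0.0382). The first of these calls was lost without WT replicate 1, WT replicate 2 or H151 replicate 2 (adjusted p from 0.0649 to 0.135), and the second on leaving out any of its 4 libraries (from 0.143 to 0.239). The second was also lost with DESeq2 (0.141), with every gene tested (0.12) and with total counts only (0.138), and 4 of its 11 alternatives kept it. Without H151 replicate 2, Irf3 was called lower than WT with H151, at -0.31 (adjusted p = 0.0481).

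Without a test, both Trex1-/- libraries lay above both WT libraries for 6 members and below them for 1, Irf3, where 28.6% of tested genes lay wholly above and 27.5% wholly below. With H151, 4 members lay wholly below vehicle and 1, Irf4, wholly above (17.9% and 17.5% of tested genes). With SN-011, 5 lay wholly below and 3 wholly above (21.6% and 21.8%). Against WT, 5 members lay wholly above with H151 and 1 wholly below (26.7% and 25.4%), and 6 wholly above with SN-011 and 0 below (28.8% and 25.5%). For SN-011 against H151, 3 members (Irf3, Irf8 and Irf9) lay wholly above and 1, Irf2, wholly below (19.7% and 20.0%).

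Some markers of other cell types differed between the genotypes and are given here because they move with the comparisons to WT. Summed neutrophil and granulocyte precursor markers were at 9.22 to 10.0 CPM in WT and 65.3 to 99.5 CPM in the 6 Trex1-/- libraries, with 5 of the 6 tested among 9 markers called higher in Trex1-/- than in WT. Summed fibroblast and stromal markers, mostly Col1a1 and Col1a2, were at 2069 to 2265 CPM in WT and 849 to 1200.0 CPM in the Trex1-/- libraries. Of the 5 tested among 6 markers, 4 were called lower. The other, Dcn, was not called and lay the other way, at 1.77 and 2.58 CPM in WT and 2.90 to 3.43 CPM in the Trex1-/- libraries. Plasmacytoid dendritic cells carry high Irf7 and Irf8. Their summed markers were at 224 to 228 CPM in WT and 242 to 256 CPM in the Trex1-/- libraries. Nearly all of that sum was Tcf4, and neither of the 2 tested markers was called in Trex1-/- with vehicle against WT. Siglech had at most 1 count in a library and Klk1 had 0. Summed dendritic cell markers were at 9.42 to 10.4 CPM in WT and 10.8 to 14.2 CPM in the Trex1-/- libraries (Cd209a had 0 counts), with 2 of 6 tested markers, Clec9a and Xcr1, called higher in Trex1-/- with vehicle than in WT. Another of the 6, Zbtb46, was lower in Trex1-/- with vehicle (0.604 and 0.528 CPM) than in WT (1.91 and 0.949 CPM) and was not called. The sum for B cells was 9.42 to 12.5 CPM in WT and 6.85 to 8.04 CPM in the Trex1-/- libraries, with 1 of 2 tested markers, Ebf1, called lower. The other, Cd79b, had 1.69 and 2.51 CPM in WT and 3.17 in both Trex1-/- libraries with vehicle and was not called. For T and NK cells it was 0.0678 to 0.221 CPM in WT and 0.528 to 1.27 CPM in the Trex1-/- libraries, and the 1 tested marker, Cd2, was called higher. The Y-linked gene Ddx3y had 138 CPM in both WT libraries and 44.2 to 49.1 CPM in the Trex1-/- libraries. Of 5 sex-linked genes 4, all Y-linked, were called lower in Trex1-/-. The other, the X-linked Xist, was not called, at 3.02 and 3.12 CPM in WT and 3.03 to 4.24 CPM in the Trex1-/- libraries. The labels give no sex. The part of these differences in the Irf results against WT was not tested. Of the 9 macrophage markers, whose sum was mostly Lyz2 and overlapped between the genotypes, 3 (Fcgr1, Cd68 and Adgre1) were called higher in Trex1-/- than in WT and 1, Fcgr1, was called lower with each antagonist than with vehicle. No marker of the other cell types and no sex-linked gene was called between an antagonist and vehicle.

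Levels between members were compared only per length, as CPM per kilobase of all annotated exons of a gene, a scale on which rarely used exons lower the value. In WT the order of mean levels was Irf5 (58.8), Irf8 (49.6), Irf1 (21.1), Irf7 (19.9), Irf3 (16.9), Irf9 (15.7), Irf2 (12.5) and Irf4 (2.15). Irf1 and Irf7 overlapped in WT, with 22.8 and 19.3 against 22.1 and 17.7, and the other neighbours did not. In Trex1-/- the order began with Irf7 at 122 CPM per kilobase, followed by Irf5 (81.3), Irf8 (52.9), Irf1 (32.8), Irf9 (24.0), Irf2 (17.2), Irf3 (16.1) and Irf4 (1.87). No neighbours overlapped there, although the lower Irf2 library (16.85) and the higher Irf3 library (16.84) almost met.

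With either antagonist Irf5 again came first on this scale, at 77.6 CPM per kilobase with H151 and 76.2 with SN-011, followed by Irf7 at 64.2 and 72.7 and Irf8 at 54.6 and 57.2. The Irf7 libraries overlapped those of Irf8 with H151 (55.8 and 72.6 against 52.5 and 56.7) and those of Irf5 with SN-011 (67.8 and 77.5 against 75.8 and 76.5). Irf1 followed (22.1 with H151 and 21.4 with SN-011), then Irf9 (18.0 and 20.3), Irf3 (15.2 and 18.1), Irf2 (14.9 and 14.5) and Irf4 (2.55 and 2.22), and of these neighbours only Irf3 and Irf2 with H151 overlapped. Of the summed level of all 8 members per length, Irf7 made up 11% and 9.2% in the WT libraries, 35.7% and 34.5% in Trex1-/-, 22.2% and 25.3% with H151, and 24.4% and 27.0% with SN-011. The share was lowest in both WT libraries, highest in both Trex1-/- libraries, and intermediate and overlapping with the antagonists. The sum itself was 193 and 201 CPM per kilobase in WT and 342 and 355 in Trex1-/-.

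**Figure D3:**
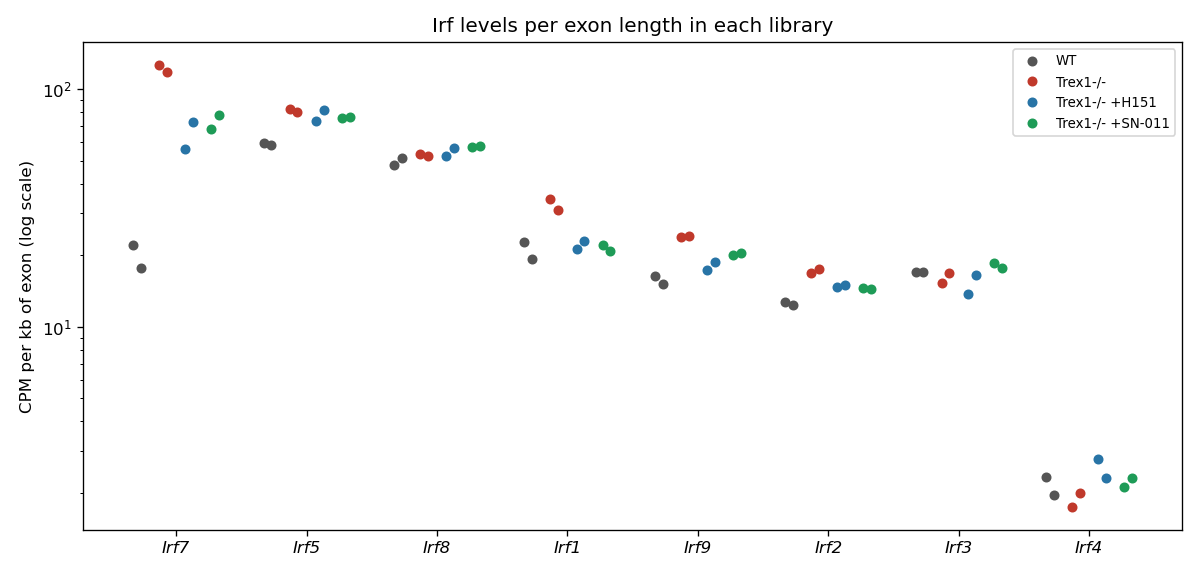
Level of each Irf gene per length (CPM per kilobase of exon, log axis) in each library, coloured by group, with genes ordered by their mean in Trex1-/- with vehicle. Irf7 moves from a WT mean of 19.9, close to Irf1, to 122 in Trex1-/-, above every other member, and Irf4 is lowest in all 8 libraries.

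Some exons of 5 members are shared with another gene, and reads there were not counted for either gene. The shared part was 14.1% of the exon length of Irf5 (with Tnpo3), 3.4% of Irf1 (with Gm17334), 2.56% of Irf3 (with Bcl2l12), 2.28% of Irf9 (with Rnf31) and 1.19% of Irf7 (with Phrf1). Over its unshared exons alone Irf5 had a mean of 68.4 CPM per kilobase in WT, 94.7 in Trex1-/-, 90.4 with H151 and 88.7 with SN-011. On that scale Irf5 and Irf7 no longer overlapped with SN-011 (88.3 and 89.2 against 68.6 and 78.4), and Irf2 and Irf3 did overlap in Trex1-/- (16.9 and 17.6 against 15.8 and 17.3). Of these neighbours, Rnf31, a subunit of the linear ubiquitin ligase, was called higher in Trex1-/- than in WT (0.49, edgeR adjusted p = 0.000289) and lower with H151 (-0.31, adjusted p = 0.0351), as Irf9 was. Gm17334, Bcl2l12, Tnpo3 and Phrf1 were not called in Trex1-/- against WT or for either antagonist against vehicle.

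The genes whose pattern was most like that of each member called in Trex1-/- against WT or for an antagonist against vehicle were found by the root mean square difference of centred log2 CPM over the 8 libraries, among 10659 genes, as a description. Nearest to Irf7 were Gm4951 (0.151) and Phf11a (0.175), and nearest to Irf9 were Trim14 (0.055) and Cd52 (0.0598). For Irf1 they were Apobec3 (0.0506), a cytidine deaminase, and Sdc4 (0.0718), a cell surface proteoglycan. For Irf2 they were Tnfrsf11a (0.0207), the receptor RANK, and Azi2 (0.0301), an adaptor that binds TBK1, and for Irf5 they were Ms4a6d (0.04) and Ly9 (0.0437). Gm4951, the nearest to Irf7, had 25.3 and 20.7 CPM in WT, 131 and 123 CPM in Trex1-/-, 52.1 and 64.4 CPM with H151, and 64.4 and 67.5 CPM with SN-011. Its antagonist groups lay between WT and Trex1-/- without overlapping either, the same order of groups as for Irf7.

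The genes around the factors are described from lists, beginning with the ligands. The lists were written with earlier results of these data known, so the number called in a list is a description and not a test of it. Of 21 interferon genes none had enough counts to be tested, 17 had 0 counts in every library, and the largest count in any library was 3. Ifnb1, the interferon beta gene that IRF3 drives, had 0 to 2 counts per library, too few for a comparison between groups. Of 8 tested genes for interferon receptors and their kinases, 2 were higher in Trex1-/- than in WT, Jak2 by 0.33 and Ifnar2 by 0.24 (log2), beside 9.27% of all tested genes, and neither antagonist gave a call. The median log2 fold change of these 8 genes in Trex1-/- against WT was 0.15, against -0.002 over all tested genes.

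Of 25 sensors, adaptors and kinases that act upstream of the factors, 13 were called higher in Trex1-/- than in WT and none lower, beside 9.27% higher and 7.11% lower of all tested genes. Each antagonist lowered 8 against vehicle, beside 1.84% of all tested genes with H151 and 2.22% with SN-011. The cytosolic RNA sensors Dhx58, Ddx58 and Ifih1 rose most, by 1.51, 1.47 and 1.40 on the log2 scale. Against vehicle the same 3 genes gave -1.02, -0.94 and -0.88 with H151, and with SN-011 -0.87, -0.91 and -0.86. Tmem173, which encodes STING, was not called in any of the 6 comparisons and differed between Trex1-/- and WT by 0.23 (95% interval 0.03 to 0.44, edgeR adjusted p = 0.129). Median differences over the 25 genes were 0.28 in Trex1-/- against WT, -0.17 with H151 and -0.22 with SN-011.

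Of 16 tested partner factors 7 were called higher in Trex1-/- and none lower (9.27% and 7.11% of all tested genes). Each antagonist lowered 2 of them, Stat2 among them (1.84% of all tested genes with H151, 2.22% with SN-011). Stat2, a subunit of ISGF3 that binds IRF9, had 118 and 109 CPM in WT, 350.4 and 322 CPM in Trex1-/-, 159 and 166 CPM with H151, and 168 and 173 CPM with SN-011. The antagonist libraries lay between WT and Trex1-/-, without overlap with either. Stat2 rose by 1.57 in Trex1-/- against WT (log2), against 0.61 for Irf9. Against vehicle it gave -1.05 with H151 and -0.98 with SN-011. Batf2, a bZIP partner of IRF proteins, rose by 1.85 in Trex1-/-.

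Of 20 negative regulators of the factors or of interferon signalling 7 were called higher in Trex1-/- and none lower, where the shares of all tested genes were 9.27% and 7.11%. Each antagonist lowered 5, where the shares were 1.84% with H151 and 2.22% with SN-011. Usp18, which blocks the interferon receptor, rose by 2.63, Isg15, a ubiquitin-like modifier, by 2.01, and Socs1, an inhibitor of Janus kinases, by 1.34 at a low level. With H151 the differences from vehicle were -1.28 for Usp18 and -1.41 for Isg15, and with SN-011 they were -0.99 and -1.14. Trim30a, an inducible brake on innate signalling, fell by 0.80 with H151 and by 0.78 with SN-011. The median over the 20 genes was 0.17 in Trex1-/- against WT, -0.17 with H151 and -0.12 with SN-011.

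Of 25 genes that IRF3 and ISGF3 are known to drive, all 25 were called higher in Trex1-/- than in WT, with a median log2 fold change of 2.01, beside the 9.27% called higher among all tested genes. H151 lowered 24 of the 25 (median -1.11, against 1.84% of all tested genes) and SN-011 lowered 23 (median -1.09, against 2.22%), and none was called between the 2 antagonists. Ifi44 and Oasl1 rose most, by 3.92 and 3.80. The chemokine gene Cxcl10 had the largest falls, at -2.35 with H151 and -2.48 with SN-011, followed by the RNA-binding effectors Ifit2 (-1.78 and -1.58) and Ifit1 (-1.76 and -1.60). With the antagonists the median remained 0.64 and 0.78 above WT, and 18 and 22 of the 25 genes were still called higher than WT.

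Of 15 tested genes that IRF1 and IRF8 are known to drive, 14 were called higher in Trex1-/- than in WT (median 0.76), against 9.27% of all tested genes. H151 lowered 6 of the 15 and SN-011 lowered 7, against 1.84% and 2.22% of all tested genes. Tnfsf10, the death ligand TRAIL, rose by 2.00 and gave -1.55 with H151 and -1.71 with SN-011 against vehicle. Ifi47, an immunity-related GTPase, rose by 1.88, and Cd274, which encodes PD-L1, by 1.26. Gbp2, a guanylate-binding protein, gave -0.81 with H151 and -1.21 with SN-011.

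Of 6 tested inflammatory cytokine genes that IRF5 is known to drive 4 were called higher in Trex1-/-, Tnf (1.87), Ccl5 (1.71), Il1a (1.53) and Ccl4 (1.09), beside 9.27% of all tested genes. H151 gave no call among the 6, though 5 of them had an unadjusted edgeR p under 0.05. SN-011 gave 1 call, for Tnf (-1.54), with 4 of the 6 at an unadjusted p under 0.05. Of 5 tested alternative activation genes linked to IRF4 2 were called higher in Trex1-/-, Chil3 (3.74), a chitinase-like protein of macrophages, and Ciita (1.25), the activator of MHC class II genes, again beside 9.27% of all tested genes, and neither antagonist gave a call. Several genes stand in more than 1 list (Isg15, Usp18, Ddx58, Ifih1, Ccl5, Ciita), so the counts of the lists are not independent of each other.

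**Figure D4:**
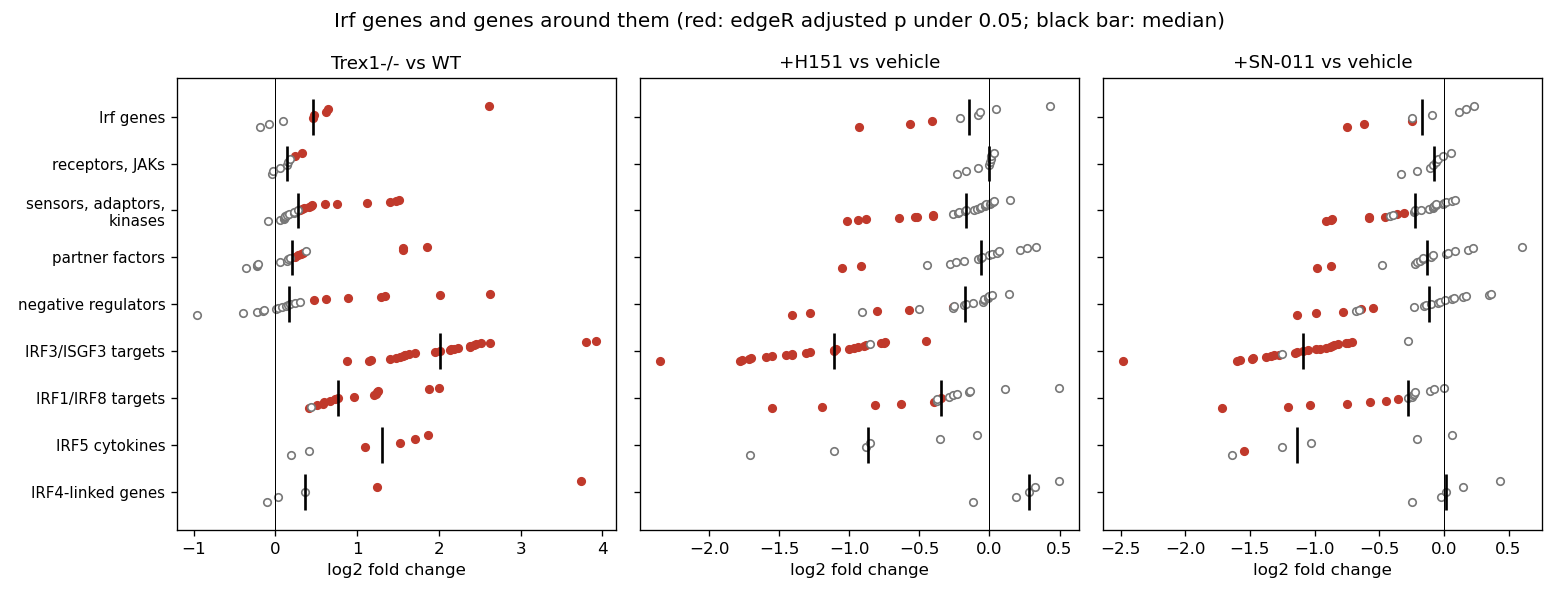
Log2 fold changes of the 8 Irf genes and of the tested genes of 8 lists (points, red where the edgeR adjusted p is under 0.05) with the median of each list as a black bar, for Trex1-/- against WT and for each antagonist against vehicle in Trex1-/-, on horizontal axes that differ between panels. The known IRF3 and ISGF3 targets have medians of 2.01, -1.11 and -1.09, while the receptors and Janus kinases have a median of 0.15 in the first panel and 2 red points there only.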

How the data were processed

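RNA-Seq of BMDMs gave 8 libraries, grouped and numbered by their titles. After Trimmomatic and a default hisat2 alignment, the authors deposited raw counts per Ensembl gene, with no normalization. The study's methods name featureCounts and the submitters' processing notes name HISAT2, HTSeq and mm10. The methods describe strand-specific libraries, but versions, annotation and the strand setting used in counting are not given in the sources used here. Different HiSeq models are named in the labels and in the methods. GENCODE M21 (GRCm38) held 54495 of the 54532 identifiers and lacked 37. Only 3 of 454 genes whose exons are covered by an opposite-strand gene had a count, and 25 of 752 covered by a same-strand gene, so reads shared by genes were not counted and strand was not used.

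Testing used R 4.3.3 and edgeR 4.0.16 on the deposited counts: filterByExpr (minimum count 10, minimum total 15), TMM factors, 1 quasi-likelihood fit of all 8 libraries with a mean per group, two-sided tests of 6 contrasts, and Benjamini-Hochberg adjustment over 14591 genes with a threshold of 0.05. SE was derived from the fold change and its F statistic and is approximate. The biological coefficient of variation was 0.0656. The procedure was tested on simulated data. Replicates differed by more than counting noise (chi-square over degrees of freedom 3.23 to 6.54), so none was merged. Counting error alone sets a floor of 3 counts, 0.174 to 0.253 CPM before TMM scaling, and without molecular identifiers read pairs may be copies of 1 molecule.

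Alternatives were RLE factors, total counts, a lower filter, DESeq2 1.42.0, edgeR's exact test, fits of 2 groups only, a replicate block and leaving out each library. The members and the gene lists were chosen with earlier results of these data known. Named genes were the members, Trex1, up to 3 called genes with the largest change per list and contrast (Trex1-/- against WT and each antagonist against vehicle), and the 2 genes at an average log2 CPM of at least 2 nearest in pattern to each member called in those contrasts. Rnf31, the other genes that share exons with members, Tmem173, Ifnb1, Ccl4 and the marker genes named singly were named after their values were seen. Some genes that this rule or the lists cover are not reported here. Promoter windows and start sites are from RefSeq.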

Additional observations from a re-analysis of the deposited data

How the results depend on the processing

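The 5 members called in Trex1-/- against WT and the 3 called with H151 against vehicle were the same genes in all 11 alternatives of each comparison. Of 528 recomputed member values none reversed a call, 500 stayed on their side of the threshold, 23 lost it and 5 gained it. The number called for SN-011 against vehicle ran from 1 to 2 when single libraries were left out (1, Irf1, without SN-011 replicate 1). For SN-011 against H151 it ran from 0 to 1 (1, Irf3, without H151 replicate 2), and for SN-011 against WT it was 3 (Irf5, Irf7 and Irf9) without any 1 library and with total counts only. With total counts Irf2 was no longer called for H151 against WT (adjusted p = 0.0607) or for SN-011 against vehicle (0.0935), and Irf9 was called for SN-011 against vehicle by the exact test (0.0462) and with every gene tested (0.0486). The causes were not tested.

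Over all genes, 2390 were called in Trex1-/- against WT (1352 higher and 1038 lower), and 946 were higher and 1598 lower with total counts only, which moved the median of all genes by -0.08 (log2). For H151 and SN-011 against WT the split was 990 to 736 and 902 to 812, and with total counts 715 to 998 and 703 to 1042. Without single libraries the count for Trex1-/- against WT ran from 1556 to 1933, that for H151 against vehicle from 231 to 357, for SN-011 against vehicle from 131 to 302, for SN-011 against H151 from 2 to 291, for H151 against WT from 971 to 1772 and for SN-011 against WT from 909 to 1159. Testing every gene with at least 1 count gave 525 calls for H151 against vehicle (325 otherwise), 679 for SN-011 against vehicle (340) and 266 for SN-011 against H151 (23), where DESeq2 gave 38 and the exact test 84.

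The titles give groups the same replicate numbers, without saying what a number shares. Correlations of deviations between same-numbered libraries ran from -0.0163 to 0.194 over pairs of groups. The largest was that of Trex1-/- with vehicle and H151, and no other exceeded 0.0609. With 2 numbers in each group these values cannot decide whether the libraries were paired, and the main fit did not pair them. With the replicate block the members called stayed at 5, 3, 3, 0, 3 and 5 in the 6 comparisons, and all called genes came to 2611, 412, 436, 44, 1939 and 1879, of which the 44 is for SN-011 against H151. The interferon genes, at 0 to 3 counts per library, were too low to be tested at this depth, and small changes in them could not be seen.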
